A study of Mus musculus with 6 samples.

Results

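The genes described here encode factors of the small-subunit processome and of the late steps that follow it. They were 42 named genes, chosen by name as a module with earlier results of these data known, and all 42 were among the 18193 genes measured. The processome is a large nucleolar particle that gathers on the nascent ribosomal RNA precursor, with the U3 small nucleolar RNA at its core. It folds and cleaves the precursor and chemically modifies it, and so frees the part that becomes the RNA of the small ribosomal subunit. MYC is known as an activator of genes for ribosome assembly, and in T-cell acute lymphoblastic leukaemia (T-ALL) it acts downstream of NOTCH1.

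The leukaemias were C57BL/6 mouse T-ALL of the genotype Notch1[delta]E mycGFP, driven by an activated NOTCH1 and carrying a c-Myc-GFP allele. Both groups were CD25+ splenocytes of 12-week-old mice taken 4 weeks after transplantation into congenic recipients, and by their labels they differed in the GFP gate alone, MycGFP negative or MycGFP positive. There were 3 arrays per group, and the design text speaks of 3 independent leukaemias, so no more than 3 tumours stand behind each value. Values are array intensities on a linear scale from RNA amplified from 5 ng, and differences are log2, positive minus negative.

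Median intensities per array were 30.5 to 32.7, and arrays of different groups correlated across genes with a Pearson's r of 0.952 to 0.972. The signal at the 3′ end over that at the 5′ end, a measure of RNA integrity, was 1.58 to 1.89 for Gapdh in negative samples against 1.48 to 1.58 in positive ones. For Actb the groups overlapped, at 1.54 to 1.87 against 1.72 to 1.85. The part of RNA integrity in the results was not tested. Myc was 2.58-fold higher in positive cells, at 801, 1135 and 1303 on negative arrays 1 to 3 and 2628, 3390.5 and 2274 on positive arrays 1 to 3 (limma, adjusted p = 0.0329). Of 12 T cell and T-ALL identity genes, 10 were measured, and their intensities summed to 84922 to 91721 per negative array against 68973 to 82668 per positive array, with none called and 3 of the 10 lower on every positive array. Summed B cell markers (7 of 8 measured) were at 237 to 780 in negative and 141 to 504 in positive samples, and macrophage markers (8 of 8) at 281 to 1157 and 220 to 363. Dendritic markers (7 of 8) were at 431 to 864 and 464 to 794, stromal and endothelial markers (8 of 8) at 741 to 1280 and 602 to 1000, and erythroid markers (5 of 8) at 82.6 to 402 and 142 to 370. NK markers (7 of 8) lay at 4853 to 5516 and 6073 to 8110, nearly all of it Gzma. Ncr1, Klra8, Eomes and Klrk1 were under the array median on all 6 arrays, while Prf1 and Nkg7 were above it. Prf1 read 163 to 207 in negative and 108 to 156 in positive samples, and Nkg7 167 to 269 and 62.8 to 378. Neutrophil markers (7 of 8) summed to 168 to 12994 and 149 to 3136, and were highest on both arrays numbered 2, where S100a8 read 4467 and 871. None of these marker genes was called, but with the array number as a block in the limma fit 3 were, all lower in positive cells: Cd79b (adjusted p = 0.0452), S100a9 (0.0482) and Pecam1 (0.0416). The part of these markers in the results was not tested. Since these were bulk samples scaled to one another, fewer cells of a type and less RNA per cell cannot be told apart.

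Many processome transcripts, those of all 5 late factors among them, were more abundant in MycGFP positive cells. At a limma p below 0.05, two-sided and adjusted by Benjamini-Hochberg across every gene tested, 18 of the 42 genes rose and none fell. This share of 42.9% stands beside 4.62% of all genes tested that were called higher, 1.51% called lower and 6.13% called in either direction. Before adjustment, 31 of the 42 had a p under 0.05, against 22.1% of all genes. The 18 that rose did so by 1.89-fold (Nop14) to 4.02-fold (Rrp12). The median log2 difference was 0.91 over the 42 genes and 0.01 over all genes. For 31 members every positive array was above every negative array, for 1 (Ddx52) every positive array was below, and for 10 the groups overlapped. Across all genes, 17% were separated with positive higher and 11.2% with positive lower. Centring each array on its own median moved the median of all genes to -0.14 and the share of higher genes among all calls from 75.3% to 56.9%. With that step 14 members were called, with Nol6, Nop14, Bysl and Tsr1 lost (limma, adjusted p = 0.0522 to 0.0771), and the members' median was 0.76.

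**Figure D1:**
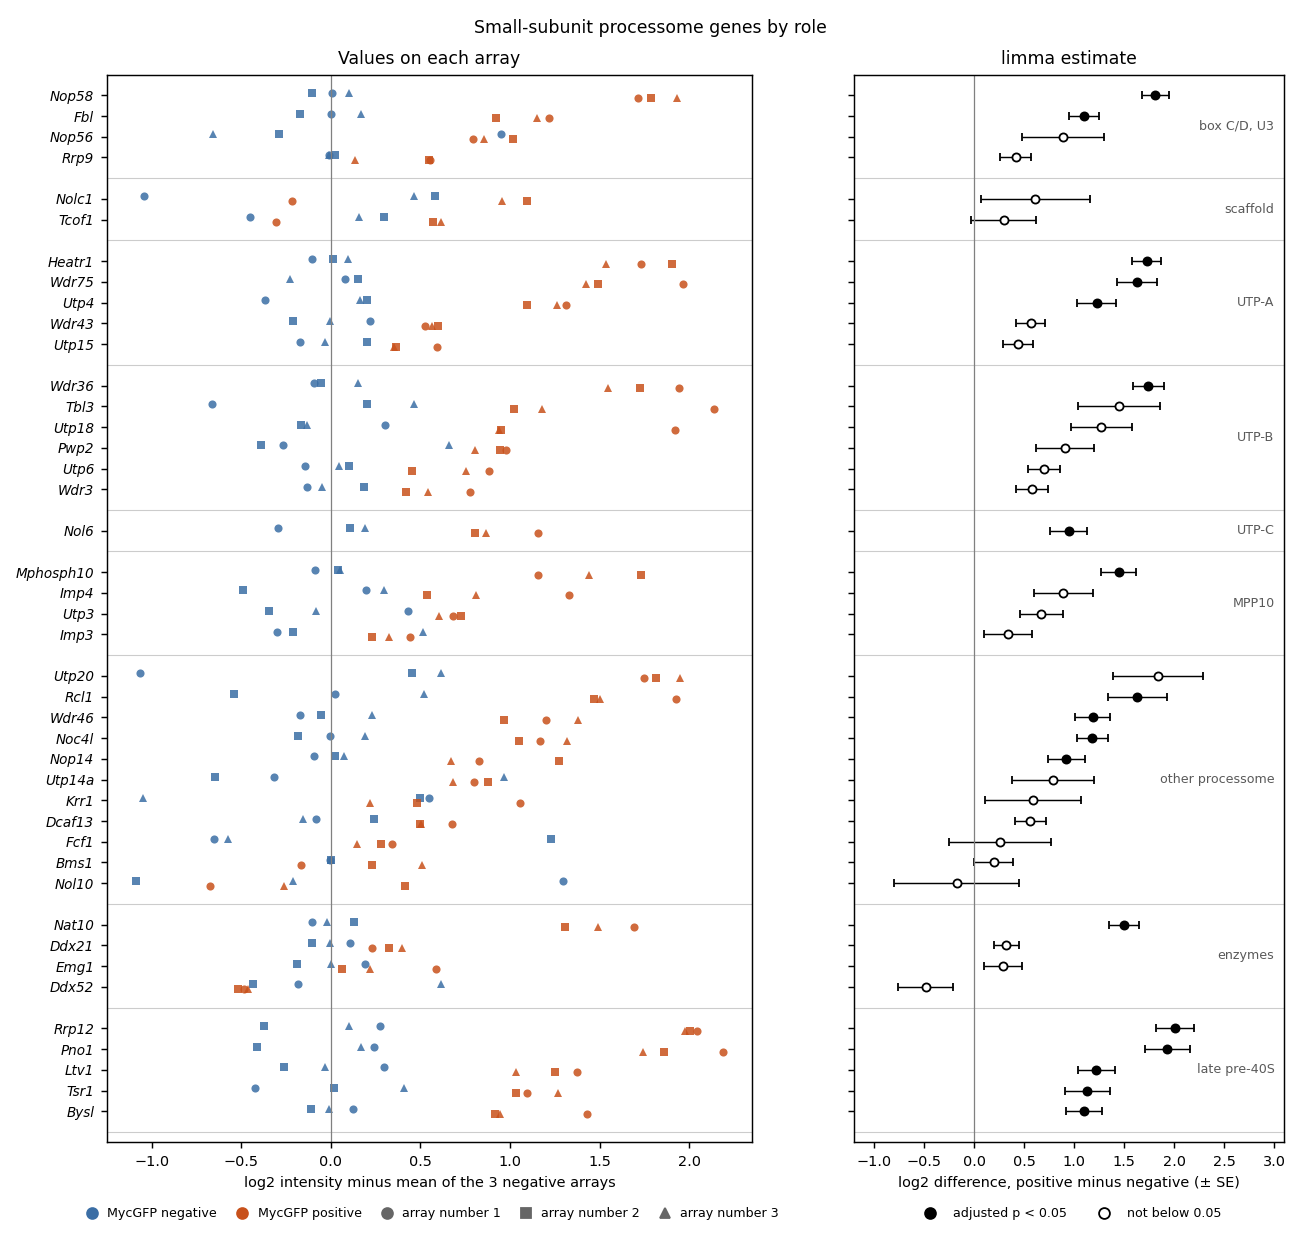
Left, log2 intensity of each of the 42 genes on each array, relative to the mean of the 3 negative arrays (blue negative, orange positive, marker shape the array number). Right, the limma log2 difference with its SE, filled where the adjusted p is under 0.05. All 5 late factors at the bottom are filled, both scaffold genes are open, and Ddx52 and Nol10 alone lie below 0.

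The rise was compared within array numbers, since both groups are numbered 1 to 3. Between positive and negative array 1, 38 of the 42 genes were higher in the positive sample, between the arrays numbered 2, 39, and between those numbered 3, 38. The median log2 differences within numbers were 1.12, 1.03 and 0.72, where those of all genes were 0.05, 0.04 and -0.02. In all 3 numbers 34 genes were higher, among them all 18 that passed. For the 31 members with every positive array above every negative one, the 18 included, this follows from that separation and adds nothing to it. No share over all genes was taken for this count. With the array number as a block in the limma fit, 17 members rose and none fell, 16 of them shared with the 18, where 5.75% of all genes were called higher.

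Single arrays decided how many genes passed. Without positive array 2, limma called none of the 42 (smallest adjusted p = 0.0591) and no gene at all, although 26 members had an unadjusted p under 0.05. Without positive array 3 the calls of Nop58, Heatr1, Wdr36 and Rrp12 were kept, 4 in all, and the 14 lost ones had an adjusted p of 0.0533 to 0.131. Without negative array 2 there were 6 calls, those 4 with Nat10 and Pno1, and the lost ones had 0.0549 to 0.122. Without positive array 1 there were 7, those 4 with Wdr75, Mphosph10 and Nat10, and the lost ones had 0.0503 to 0.116. Without negative array 1 there were 17, with Nol6, Nop14, Rcl1 and Tsr1 lost (0.0567 to 0.0936) and Nop56, Utp3 and Utp20 gained (0.0193 to 0.0414). Without negative array 3 there were 16, with Nol6, Nop14, Bysl and Ltv1 lost (0.0551 to 0.0834) and Pwp2 and Utp14a gained (0.0253 and 0.0313). In the fit without negative array 1, 4.74% of all genes were called higher, and the share without negative array 3 is not given here. The members' median stayed at 0.90 to 1.06 when any 1 of the 6 arrays was left out.

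MYC pairs with MAX and binds the E-box, CACGTG, so the promoters of the members were read for these letters. RefSeq windows of 300 bases (GRCm38.p6), from 250 before the transcript start to 50 after it, were read for 33 of the 42 genes, with 1 window each. Windows of members on 1 chromosome were left out, a step not applied to the windows of measured genes or of other lists. CACGTG, which reads the same on both strands, was in 9 of the 33 windows (27.3%), against 8.72% of 18088 windows of measured genes. The related letters CACGCG, searched on both strands, were in 6 other member windows (18.2%) and in 13.9% of those of measured genes, and no window of a member held both motifs. The stretches around the 9 matches are shown because they carry this count, 5′ to 3′ on the gene's strand, with CACGTG in capitals and up to 12 bases on either side.
Imp4: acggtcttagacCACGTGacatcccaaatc
Utp18: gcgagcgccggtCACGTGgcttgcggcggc
Wdr46: aagggagtttcgCACGTGgatcgttgttcg
Utp4: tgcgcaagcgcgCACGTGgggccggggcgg
Wdr43: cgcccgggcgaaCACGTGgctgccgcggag
Tsr1: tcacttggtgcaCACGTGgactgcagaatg
Ltv1: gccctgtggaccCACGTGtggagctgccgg
Utp20: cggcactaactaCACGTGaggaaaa
Pno1: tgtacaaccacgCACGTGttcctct

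Their positions on GRCm38.p6 are Imp4 at chr1:34439696-34439725 (+ strand), Utp18 at chr11:93885769-93885798 (- strand), Wdr46 at chr17:33940699-33940728 (+ strand), Utp4 at chr8:106893643-106893672 (+ strand) and Wdr43 at chr17:71616220-71616249 (+ strand). The others are Tsr1 at chr11:74898092-74898121 (+ strand), Ltv1 at chr10:13193092-13193121 (- strand), Utp20 at chr10:88826765-88826789 (- strand) and Pno1 at chr11:17211540-17211564 (- strand). In Imp4, Utp18 and Wdr46 the motif begins 121, 20 and 12 bases before the start. In the other 6 it lies in the 50 bases after the start, beginning at base 16 in Utp4, 18 in Wdr43, 25 in Tsr1, 29 in Ltv1 and 38 in both Utp20 and Pno1. Of all CACGTG matches in windows of measured genes, 13% lay after the start. Among members whose window was read, the motif was in 5 of the 14 that rose and in 4 of the 19 that did not pass. It was also in 8 of 32 windows (25%) of further small-subunit and nucleolar factors and in 8 of 37 (21.6%) of large-subunit assembly factors. A match here is a description of the letters, not a site, and its absence says only that the letters are not in this window.

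The 250 bases before the start of Wdr46 (chr17:33940473-33940722, + strand) and of Utp18 (chr11:93885767-93886016, - strand) are given whole, since in these the E-box sits within 20 bases of the start.
Wdr46: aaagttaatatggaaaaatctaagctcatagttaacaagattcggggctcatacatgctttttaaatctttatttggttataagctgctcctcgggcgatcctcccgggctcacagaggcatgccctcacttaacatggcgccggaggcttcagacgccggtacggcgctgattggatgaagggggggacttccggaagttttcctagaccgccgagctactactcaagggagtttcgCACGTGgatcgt
Utp18: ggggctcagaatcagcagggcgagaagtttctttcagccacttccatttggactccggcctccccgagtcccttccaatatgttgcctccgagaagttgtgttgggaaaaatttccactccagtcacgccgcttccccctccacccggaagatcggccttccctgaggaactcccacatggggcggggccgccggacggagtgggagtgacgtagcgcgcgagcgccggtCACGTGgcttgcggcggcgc

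Box C/D small nucleolar ribonucleoproteins, U3 among them, carry the core proteins fibrillarin, NOP56 and NOP58. Of these and the U3-specific protein gene Rrp9, Nop58 and Fbl rose. Nop58, a scaffold of the box C/D particle, read 356, 330.2 and 382 on negative arrays 1 to 3 and 1168, 1225 and 1356 on positive arrays 1 to 3. The groups lay far apart with a narrow spread in each, and the rise was 1.81 (SE 0.13), or 3.51-fold (limma, adjusted p = 0.0103). Fbl, the methyltransferase of the particle, read 3115, 2764 and 3492 on negative arrays 1 to 3 and 7229, 5882 and 6911 on positive arrays 1 to 3. The groups did not overlap, and Fbl was 2.14-fold higher (limma, adjusted p = 0.02), with the same fold from its other probe set (2.14-fold).

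Nop56, the partner of NOP58 in the particle, read 1594, 674 and 522 on negative arrays 1 to 3 and 1428, 1669.6 and 1491 on positive arrays 1 to 3. Negative array 1 stood within the positive range and the other negative arrays well below it, and the difference of 0.89 did not pass (limma, adjusted p = 0.279). The second Nop56 probe set showed the same high negative array 1, at 988 against 401 and 331 on negative arrays 2 and 3. Without negative array 1 Nop56 was called, at a difference of 1.36 (limma, adjusted p = 0.0227, 0.0227 to 0.499 over its 14 alternatives). Rrp9 read 183, 187 and 183 on negative arrays 1 to 3 and 269.8, 269 and 202 on positive arrays 1 to 3, and positive array 3 came close to the negative ones. Its difference of 0.41 did not pass (limma, adjusted p = 0.193).

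Nolc1 and Tcof1 encode the related nucleolar phosphoproteins NOPP140 and treacle, which connect RNA polymerase I and snoRNPs. Neither passed, and on the probe sets used for them both varied more by array number than by group. Nolc1 read 647, 2001 and 1839 on negative arrays 1 to 3 and 1149, 2849.7 and 2590.0 on positive arrays 1 to 3. Both arrays numbered 1 were low and the other positive arrays were highest, and the difference of 0.61 had an SE of 0.55 (limma, adjusted p = 0.609). The other 2 Nolc1 probe sets did not show the low arrays numbered 1. The clearer of them read 533, 462 and 538 on negative arrays 1 to 3 and 1413, 1376 and 1403 on positive arrays 1 to 3, a rise of 2.74-fold (limma over all probe sets, adjusted p = 0.01), and the other rose 2.09-fold (adjusted p = 0.0345). Tcof1 read 1305, 2198 and 1990.0 on negative arrays 1 to 3 and 1447, 2652 and 2736 on positive arrays 1 to 3. Both arrays numbered 1 were again the lowest of their group on this probe set. On the other 2 Tcof1 probe sets positive array 1 was also the lowest of its group. Negative array 1 was there the highest of its group, at 373 and 288. No Tcof1 probe set passed.

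The UTP-A complex is the part of the processome that binds the precursor's leading end first and is tied to its transcription. All 5 members measured here were separated between the groups, and 3 rose. Heatr1, its largest subunit, read 168, 182 and 193 on negative arrays 1 to 3 and 598, 674 and 522 on positive arrays 1 to 3. The groups lay far apart, at a difference of 1.72 with an SE of 0.15, or 3.3-fold (limma, adjusted p = 0.0103). The other Heatr1 probe sets gave 1.94-fold (limma, adjusted p = 0.0292) and 1.14-fold (0.847). Wdr75, a beta-propeller subunit, read 256, 269 and 207 on negative arrays 1 to 3 and 948, 681 and 650.1 on positive arrays 1 to 3. Positive array 1 was the highest of a group that lay wholly above the negative arrays, and the rise was 3.09-fold (limma, adjusted p = 0.0162). Utp4, formerly Cirh1a, whose human counterpart is mutated in a childhood liver cirrhosis, rose 2.33-fold, from 411 ± 84.9 to 947 ± 73.1 (SD, n = 3) (limma, adjusted p = 0.0259).

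Neither of the other UTP-A subunits passed. Wdr43 read 4727, 3520.0 and 4056 on negative arrays 1 to 3 and 5861, 6154 and 6031 on positive arrays 1 to 3, with close positive values, and its difference of 0.56 did not pass (limma, adjusted p = 0.084). Utp15 read 1362, 1767 and 1502 on negative arrays 1 to 3 and 2314, 1972 and 1963 on positive arrays 1 to 3. It had the smallest difference of the complex, 0.44 (limma, adjusted p = 0.165), and its 2 probe sets gave the same fold, 1.35-fold.

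UTP-B, a complex made largely of beta-propeller proteins that binds next and contacts U3, had 6 members here. All 6 were separated with positive higher, yet Wdr36 alone passed. Wdr36, a gene linked to glaucoma in humans, read 206, 212 and 244 on negative arrays 1 to 3 and 848, 727 and 643 on positive arrays 1 to 3. The lowest positive value was far above the highest negative one, and the rise was 3.34-fold at a difference of 1.74 with an SE of 0.16 (limma, adjusted p = 0.0103). Tbl3 read 119.8, 218 and 261 on negative arrays 1 to 3 and 835, 385 and 429 on positive arrays 1 to 3. Positive array 1 stood far above the other positive arrays and negative array 1 was the lowest of all, and with this spread a difference of 1.45 did not pass (limma, adjusted p = 0.0979).

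Utp18 read 578, 417 and 427 on negative arrays 1 to 3 and 1775, 906 and 899 on positive arrays 1 to 3, again with positive array 1 standing apart. The difference was 1.27 (limma, adjusted p = 0.0697), and it passed with the array number as a block (adjusted p = 0.0324, 0.0201 to 0.183 over its 14 alternatives). Pwp2 read 412, 379 and 785 on negative arrays 1 to 3 and 977, 955 and 866 on positive arrays 1 to 3. Negative array 3 was close to the positive arrays, and without it Pwp2 was called (limma, adjusted p = 0.0253, 0.0253 to 0.3 over its 14 alternatives), against 0.134 with all arrays. Utp6 had a difference of 0.70 (limma, adjusted p = 0.062), while its other 2 probe sets rose 2.7-fold and 2.57-fold. Wdr3 had the lowest difference of the complex, 0.58, at 808, 1009 and 858 on negative arrays 1 to 3 and 1519.5, 1188 and 1294 on positive arrays 1 to 3 (limma, adjusted p = 0.0912).

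Nol6, the large subunit of UTP-C, rose 1.92-fold. It read 632, 833 and 884 on negative arrays 1 to 3 and 1729.9, 1354 and 1415 on positive arrays 1 to 3. The groups did not overlap, and positive array 1 was the highest. The other Nol6 probe set gave 1.3-fold, also without overlap (limma over all probe sets, adjusted p = 0.216). The call of Nol6 was near the threshold (limma, adjusted p = 0.0414), was lost with the array number as a block (0.075), and had an adjusted p of 0.0338 to 0.112 over its 14 alternatives.

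The MPP10 complex bridges U3 and the precursor at the sites to be cut. Of its 4 members, Mphosph10, which encodes MPP10 itself, rose. It read 251, 274 and 277 on negative arrays 1 to 3 and 594, 885 and 725 on positive arrays 1 to 3. Negative values were close together and positive array 2 was the highest. The rise was 2.72-fold, a difference of 1.44 with an SE of 0.18 (limma, adjusted p = 0.0162). The other Mphosph10 probe set gave 1.46-fold with overlapping groups (limma over all probe sets, adjusted p = 0.587). None of its partners passed. Imp4 read 416, 258 and 446 on negative arrays 1 to 3 and 911, 527 and 636 on positive arrays 1 to 3, separated but wide, at a difference of 0.89 (limma, adjusted p = 0.143), and another of its probe sets passed at 1.92-fold higher (adjusted p = 0.0323). Imp3, the other partner of MPP10, read 1598, 1704 and 2813 on negative arrays 1 to 3 and 2673, 2312 and 2473 on positive arrays 1 to 3. Negative array 3 exceeded all positive arrays, and the difference was 0.33 (limma, adjusted p = 0.511). Utp3, also called SAS10, had a difference of 0.67 (limma, adjusted p = 0.134), and without negative array 1 it was called (adjusted p = 0.0414, 0.0414 to 0.308 over its 14 alternatives).

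Of the 11 other processome factors, Rcl1, Wdr46, Noc4l and Nop14 rose. Rcl1, a cyclase-like protein that pairs with the GTPase BMS1, read 145, 98 and 204 on negative arrays 1 to 3 and 542, 394 and 404 on positive arrays 1 to 3. All positive arrays were above all negative ones, and the rise was 3.1-fold (limma, adjusted p = 0.0343). Its partner Bms1 read 1147, 1149.7 and 1151 on negative arrays 1 to 3 and 1025, 1347 and 1636 on positive arrays 1 to 3. The negative arrays were nearly equal and positive array 1 lay below them, and the difference was 0.19 (limma, adjusted p = 0.652). That Bms1 probe set is of a kind marked as possibly cross-hybridising. On the other Bms1 probe set every positive array was above every negative one, at 1.25-fold (limma over all probe sets, adjusted p = 0.236). Whether the partners differ from each other in response was not tested.

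Noc4l and Nop14 encode proteins that bind each other in the particle. Noc4l read 520.5, 459.6 and 597 on negative arrays 1 to 3 and 1174, 1083 and 1304 on positive arrays 1 to 3, was separated, and rose 2.26-fold (limma, adjusted p = 0.0174). That probe set and 2 of the other 3 are of kinds marked as possibly cross-hybridising, and the remaining one gave 1.93-fold (limma without such probe sets, adjusted p = 0.105, 0.014 to 0.105 over its 14 alternatives). Nop14 read 166, 180.4 and 187 on negative arrays 1 to 3 and 314, 428 and 282 on positive arrays 1 to 3. It rose 1.89-fold, the smallest rise among the calls (limma, adjusted p = 0.0447), and was not called with the array number as a block (0.0566, 0.0338 to 0.12 over its 14 alternatives). Wdr46, whose upstream bases are printed above, rose 2.27-fold, from 100.4 ± 14.7 to 228 ± 32.5 (SD, n = 3) (limma, adjusted p = 0.0225). That probe set too is marked as possibly cross-hybridising, and from the other one Wdr46 was not called (0.0746, 0.0208 to 0.0792 over its 14 alternatives).

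Utp20, a long scaffold protein of the processome, had the largest difference among the genes that did not pass, 1.84 with an SE of 0.45. It read 40.9, 117 and 131 on negative arrays 1 to 3 and 287, 301 and 331 on positive arrays 1 to 3. The groups were separate, but negative array 1 was near the array median and far below the other negative arrays (limma, adjusted p = 0.0697). Without that array Utp20 was called at a difference of 1.31 (adjusted p = 0.0193, 0.0193 to 0.182 over its 14 alternatives). Dcaf13, also called SOF1, had a difference of 0.56 with separate groups (limma, adjusted p = 0.0925).

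In 4 further genes of this group 1 negative array stood apart. Fcf1, the endonuclease thought to cut at the 5′ end of the small-subunit RNA, read 1051, 3866 and 1111 on negative arrays 1 to 3 and 2094, 2005 and 1829 on positive arrays 1 to 3. Negative array 2 was above all others, and the difference of 0.26 turned to -0.07 without negative array 1 and -0.03 without negative array 3. Nol10, the counterpart of yeast Enp2, read 2206, 422 and 775 on negative arrays 1 to 3 and 561, 1194 and 749.6 on positive arrays 1 to 3. Negative array 1 was the highest, and the difference of -0.17 became 0.47 without it and 0.08 without positive array 1. Utp14a, a helicase cofactor, read 167, 132 and 405 on negative arrays 1 to 3 and 361, 381 and 333 on positive arrays 1 to 3. Negative array 3 lay above every positive array, and without it Utp14a was called (limma, adjusted p = 0.0313, 0.0313 to 0.604 over its 14 alternatives), against 0.345 with all arrays. Krr1 read 799.9, 772 and 265 on negative arrays 1 to 3 and 1135, 763 and 635 on positive arrays 1 to 3, with negative array 3 low and the groups overlapping (limma, adjusted p = 0.57). Of the other 3 Krr1 probe sets, 2 rose, by 2.51-fold and 2.05-fold (limma over all probe sets, adjusted p = 0.0293 and 0.0242).

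Of the enzymes, Nat10, which acetylates cytidines of the small-subunit RNA, rose 2.82-fold. It read 99.3, 117 and 105 on negative arrays 1 to 3 and 346, 264 and 301 on positive arrays 1 to 3. The groups were well apart (limma, adjusted p = 0.0116). A second Nat10 probe set gave -0.27 (adjusted p = 0.498), the only 1 of the other 35 probe sets of members with a difference below 0, and with both averaged Nat10 was not called (0.0532, 0.0102 to 0.0591 over its 14 alternatives). Emg1, a methyltransferase of the same RNA, read 4029.7, 3103 and 3529 on negative arrays 1 to 3 and 5303, 3689 and 4116 on positive arrays 1 to 3. The groups overlapped and the difference was 0.29 (limma, adjusted p = 0.455).

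The RNA helicase gene Ddx21, whose product coordinates polymerase I transcription with processing, read 5507, 4757 and 5102 on negative arrays 1 to 3 and 5999, 6403 and 6734 on positive arrays 1 to 3. All positive arrays were above the negative ones, but by only 1.25-fold (limma, adjusted p = 0.211), and its other probe set rose 1.79-fold (adjusted p = 0.0337). Ddx52, the helicase homologous to yeast Rok1, had a difference of the opposite sign. It read 514, 432 and 894 on negative arrays 1 to 3 and 417, 408 and 424 on positive arrays 1 to 3. Every positive array was below every negative one, most of all below negative array 3, at a difference of -0.49 that did not pass (limma, adjusted p = 0.385), and its second probe set gave 0.22.

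The late factors, which stay with or join the small-subunit precursor on its way to the cytoplasm, all rose, 5 of 5. Rrp12, an export factor, read 41.4, 26.4 and 36.7 on negative arrays 1 to 3 and 141, 138 and 135 on positive arrays 1 to 3. This was the largest difference of the 42, 2.01 with an SE of 0.19, or 4.02-fold (limma, adjusted p = 0.0103). Its negative values were near the array medians. Pno1, which shields the cleavage site at the RNA's 3′ end, read 218, 139 and 207 on negative arrays 1 to 3 and 839, 669.6 and 617 on positive arrays 1 to 3. It rose 3.81-fold with separate groups (limma, adjusted p = 0.0152).

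Ltv1, which is released late in maturation, rose 2.33-fold, from 300.3 ± 59.2 to 694 ± 81.7 (SD, n = 3) (limma, adjusted p = 0.0246). Tsr1, a GTPase-like protein that holds the precursor immature, read 322, 436 and 572 on negative arrays 1 to 3 and 920.3, 882 and 1038 on positive arrays 1 to 3 and rose 2.19-fold (limma, adjusted p = 0.0447). Bysl, or bystin, read 375, 318 and 341 on negative arrays 1 to 3 and 928, 648 and 661 on positive arrays 1 to 3. It had the smallest rise of the late factors, 2.14-fold (limma, adjusted p = 0.0293), with positive array 1 highest. Pno1, Ltv1 and Tsr1 are among the 9 genes with CACGTG in the window, while Bysl had CACGCG there.

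**Figure D2:**
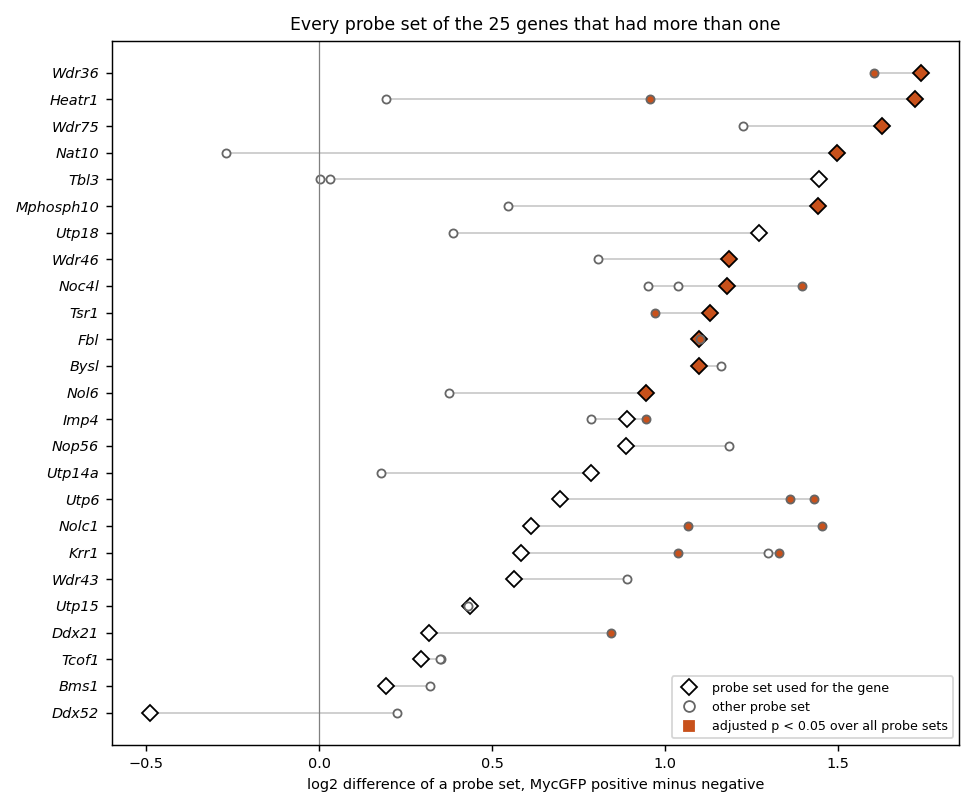
Log2 difference of every probe set for the 25 members with more than 1 (diamonds, the probe set used for the gene; circles, the others; filled, adjusted p under 0.05 over all 34945 probe sets). Nolc1, Krr1, Utp6, Ddx21 and Imp4 have open diamonds with filled circles to their right, and Nat10 has 1 circle left of 0.

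The choice of probe set mattered for several members. Together the 42 genes had 77 probe sets, and 25 genes had more than 1. Of the 35 probe sets not used above, 13 were called higher and none lower, in a fit over all 34945 probe sets where 4.76% were called higher. Among the 24 genes that did not pass, 5 had another probe set that did: Nolc1, Utp6, Krr1, Ddx21 and Imp4. Among the 11 that passed and had another probe set, 5 had another called one. When all probe sets of a gene were averaged, 21 of the 42 passed, with Nolc1, Utp6, Utp18, Krr1 and Ddx21 gained and Nol6 and Nat10 lost. The share of all genes called higher after averaging is not given here.

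The other genes of the pathway were described by counts. Of 31 further factors measured, of the small subunit and of the nucleolus more widely, 8 rose and none fell, 25.8%, at a median difference of 0.73. Among them Sdad1 rose 2.25-fold (limma, adjusted p = 0.0165), Rrp1b, a nucleolar protein, 4.62-fold (limma, adjusted p = 0.0186) and Rps19bp1, a partner of the ribosomal protein RPS19, 2.48-fold (limma, adjusted p = 0.0188). With the array number as a block 7 of this list were called, with Aatf and Utp11 lost (adjusted p = 0.055 and 0.0785) and Dhx37 gained (0.0421). Without negative array 2 or any 1 positive array none of the list passed. The nuclear exosome, which trims and degrades precursor RNA, had 4 of 14 genes that rose, and the list's median was 0.92. Among those that rose were Exosc10, a catalytic subunit gene, at 2.06-fold (limma, adjusted p = 0.026) and the core subunit gene Exosc8 at 3.52-fold (limma, adjusted p = 0.0343). The cofactor gene Mphosph6 rose 2.18-fold (limma, adjusted p = 0.0376).

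Set beside these, 16 of 42 large-subunit assembly genes rose (38.1%), at a median of 0.93, among them Gnl3 at 3.77-fold (limma, adjusted p = 0.0103) and the methyltransferase gene Nop2 at 2.61-fold (limma, adjusted p = 0.0106). The block gave 13, with 5 of those 16 lost (adjusted p = 0.0522 to 0.0683) and Noc2l and Pes1 gained (0.0281 and 0.0425). Of 18 genes for RNA polymerase I and its initiation factors, 2 rose, Polr1b, its second largest subunit gene, at 5.27-fold (limma, adjusted p = 0.0259) and Polr2h, a shared subunit gene, at 1.77-fold (limma, adjusted p = 0.035), and the list's median was 0.30. The block also gave 2, with Polr2h lost (adjusted p = 0.0571) and Polr1c gained (0.0393). Of 23 measured small-subunit ribosomal protein genes, 2 rose, Rps27l and Rps25, by 2.03-fold (limma, adjusted p = 0.0174) and 2.19-fold (limma, adjusted p = 0.0371), at a median of 0.11, less than the shift that centring made in the median of all genes. Intensities in this list reached 16033.5, where the highest outside the controls was 19948. Rps25 was read from a probe set at 397 to 1220, and 1 gene of the list was under 32.4 on every array. Whether differences are compressed at high intensities was not tested. No list had a called gene that fell, and no test set 1 list against another.

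**Figure D3:**
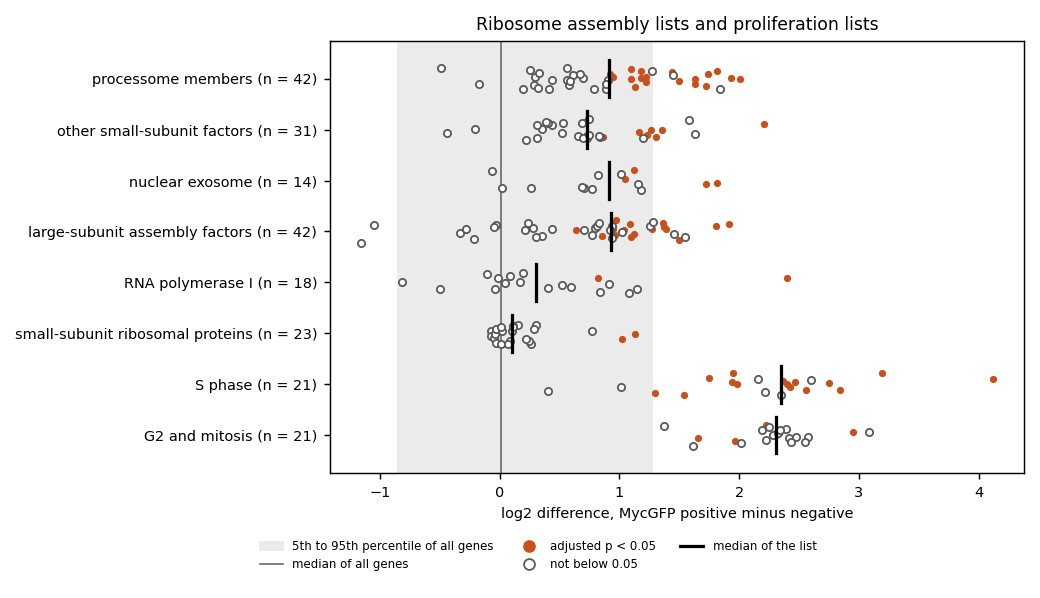
Log2 difference of each gene in 8 lists (points, filled where the adjusted p is under 0.05; black bars, the list's median), with the median and the 5th to 95th percentile of all genes in grey. The medians of the processome members and the large-subunit factors lie at 0.91 and 0.93, that of small-subunit ribosomal proteins at 0.11, and those of S phase and mitosis beyond the grey band.

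Proliferation genes moved with the same groups. Of 21 S phase genes 15 rose, at a median of 2.35, and of 21 genes for G2 and mitosis 4 rose, at a median of 2.31, with all 21 separated. With the array number as a block the counts were 18 of 21 for S phase and 13 of 21 for G2 and mitosis, with none lower. Taking the median over each list of the deviation from the gene's own mean, G2 and mitosis genes lay at 0.15, -1.42 and -2.22 on negative arrays 1 to 3 and at 1.54, 1.05 and 0.87 on the positive arrays. S phase genes lay at -0.36, -1.27 and -1.53 on the negative and 1.37, 1.03 and 0.95 on the positive arrays. Processome members lay at -0.58, -0.58 and -0.35 on the negative and 0.53, 0.41 and 0.41 on the positive arrays. The part of cycling cells in the processome result was not tested.

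**Figure D4:**
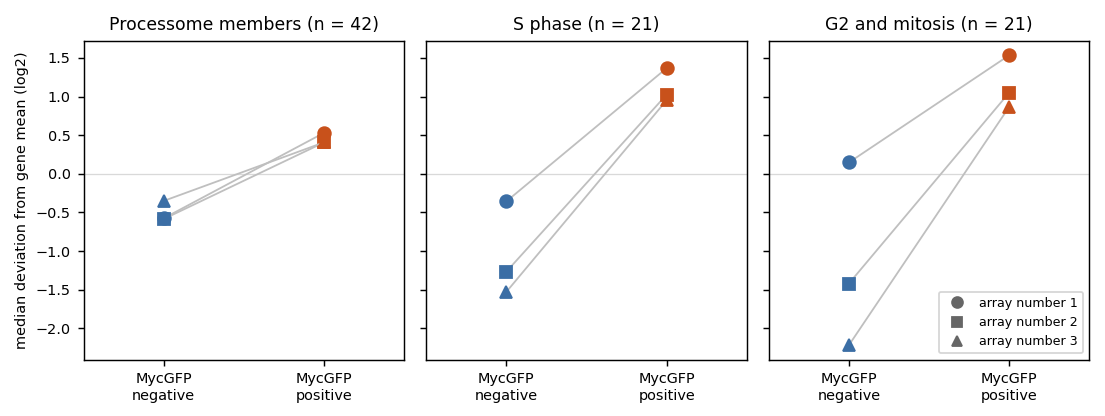
Median over the genes of a list of log2 intensity minus the gene's mean over 6 arrays, by group (marker shape and grey lines, the array number). Negative arrays lie between 0.15 and -2.22 for G2 and mitosis genes and between -0.35 and -0.58 for the processome members.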

How the data were processed

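RNA of sorted leukaemia cells was amplified and hybridised to Affymetrix mouse arrays, per the labels' protocols. The authors deposited 1 linear intensity per probe set, made with RMA per the submitters' processing notes, with no version and no genome build (not given in the sources used here). Such scaling between arrays hides any change in the RNA content of a cell. The intensities were turned into log2 values before any test.

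Of 45101 probe sets, 34945 carried 1 gene symbol in the platform annotation, 932 several and 9160 none, beside 64 control probe sets. Symbols were brought up to date by Entrez identifier from RefSeq (GRCm38.p6, 34741 matched). For each of 18193 genes the probe set of highest mean over the 6 arrays was kept. Groups were compared in limma 3.58.1 (R 4.3.3) by lmFit and eBayes without covariates, two-sided, with p-values adjusted by Benjamini-Hochberg across every gene, a threshold of 0.05, and 4 residual and 2.17 prior degrees of freedom. The same fit was also run on data simulated from the genes' own means and spreads, and the outcome is not given here. A fold is the antilog of a log2 difference. No detection calls were used, and the number of arrays limits the precision.

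Deviations from the group means correlated positively between arrays of the same number (r = 0.38, 0.21 and 0.39 across genes) and negatively between others (-0.32 to -0.03). Such deviations cancel within a group, so positive values for the same number force negative ones elsewhere, and the contrast is partly built in. On that ground arrays were compared within numbers, and the number served as a block in an alternative fit. The main fit, which gave the calls, SEs and adjusted p-values above unless a block is named, did not pair the arrays. No label ties a number to a leukaemia. What p-values measure here is the spread among these samples, which may be partly technical. Members, roles and lists were chosen with earlier results of these data known. By rule every member could be named, with values on each array for the leading and lowest members of a role and up to 3 called genes for another list; members shown on each array beyond that, and genes of other lists or markers named for a call lost or gained with the block, were added after their values were seen. Results were recomputed with the array number as a block, with each array left out in turn, with probe sets averaged, with median centring or quantile normalization, without cross-hybridising probe sets, without dim genes, with a trended robust variance and with array weights.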

Additional observations from a re-analysis of the deposited data

How the results depend on the processing

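Against 18 members called, leaving out 1 array gave 0 to 17 (limma), and 29, 28, 29, 25, 26 and 29 members had an unadjusted p under 0.05 without negative arrays 1 to 3 and positive arrays 1 to 3. For the further small-subunit and nucleolar factors the range was 0 to 7 against 8. Over all genes, 840 were higher and 275 lower, against 131 and 37 without negative array 2, 174 and 55 without positive array 1, 0 and 0 without positive array 2 and 104 and 26 without positive array 3. In the 8 settings that keep all arrays, 13 to 21 members were called and none lower, and the median stayed at 0.75 to 0.92. With the array number as a block 17 were called, of which 16 were among the 18, and it changed no member's call other than those of Nol6, Nop14 and Utp18. Quantile normalization gave 13 members and 510 higher and 383 lower genes, 57.1% higher, with Nol6, Nop14, Tsr1, Wdr46 and Rcl1 lost (adjusted p = 0.053 to 0.117). The difference of Nol10 changed sign with array weights (0.036) and without negative array 1 or positive array 1, and ranged from -0.72 to 0.47 with 1 array left out. That of Fcf1 changed sign without negative array 1 or 3, and ranged from -0.071 to 0.87. Neither passed in any setting. Tsr1 had no probe set left without those marked as cross-hybridising. No detection calls were at hand for values near the array medians, such as those of Rrp12 on negative arrays.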
